A study of Mus musculus with 5 samples.

Results

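The array used here carries probes for transcripts known only as sequenced cDNA clones, entries from large mouse cDNA collections that carried no curated gene name when the array was designed. A probe was counted as such when its accession was a clone accession (AK and digits) and its gene name was either that accession or a RIKEN clone name ending in Rik. By this rule 1449 of 55681 non-control probes were clone transcripts, 1229 with a Rik name and 220 with the bare clone accession, from 1429 clones under 1410 names. Each was read by 1 spot an array, so a level rests on a single spot.

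Gene expression was measured on 5 arrays of mouse cells. The array labelled MEF held mouse embryonic fibroblasts, and NPC held neural progenitor cells derived from brain, the control progenitors. Another 3 arrays held ciNPC, chemically induced neural progenitor cells made with chemical cocktails under hypoxia: 1 from passage 5 (p5) and 2 from passage 13 (p13, replicates 1 and 2). The labels used here give no strain, age, sex or culture details. The MEF and NPC arrays lay on slide 1 and the 3 ciNPC arrays on slide 2, so in any ciNPC comparison with MEF or NPC the cell type and the slide cannot be told apart. NPC and MEF shared a slide, as did p13 and p5.

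The cell labels were checked against marker genes. The 7 neural progenitor markers given here (Sox2, Pax6, Nes, Olig2, Fabp7, Sox1 and Hes5) were above background on each ciNPC array and in NPC, and 3 of 7 in MEF. Of 7 fibroblast markers, all were above background in MEF and on each ciNPC array and 4 in NPC. Levels here and below are log2 of the processed signal, 0 being the 75th percentile of the array. Lists for other cell types gave mixed readings. Of 3 endothelial markers Cdh5 was under background on all 5 arrays, while Kdr (2.28 to 4.22) was above it on all 5 and Pecam1 on 4. Of 3 pluripotency markers Pou5f1 and Zfp42 were under background throughout and Nanog (-1.32 to 0.21) was above it on all 5. Of 4 macrophage markers Ptprc was under background on all 5 arrays and Csf1r (0.50 to 1.83) above it on all 5, and Aif1 and Cd68 were each detected on some. Of 3 muscle markers Myod1 was under background throughout, Myog was above it on the 3 ciNPC arrays alone (-1.96 to -0.81), and Acta1 read 4.14 in MEF and 0.79 to 1.47 in ciNPC and was under background in NPC. An array detected 2 to 4 of 4 neuronal, 2 to 4 of 4 astrocyte and 2 or 3 of 3 oligodendrocyte markers. Their part in the clone results was not tested.

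Transcripts of this kind were collected by sequencing full-length cDNA from many tissues and stages. Some were later recognised as exons or long 3' ends of known genes, and others as long non-coding RNAs, transcripts that carry no long open reading frame and are often made at low levels in few cell types. Several that are well studied lie in Hox clusters or imprinted regions, where they are transcribed beside developmental genes. In the RefSeq table of mouse genes (GRCm38.p6, used for names only) 619 of the 1449 probes had an entry, and 830 did not. Of the matched probes 519 are now listed as lncRNA and 85 as protein-coding, and 85 carry another symbol today. The array files described the product of 1149 probes as unclassifiable, of 193 as hypothetical or unknown, and of 101 by a protein name or homolog.

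The 60-base probes below belong to 4 of the 8 clones named as higher in ciNPC than in MEF, to 2 clone names higher in ciNPC than in NPC and to the Hox clone described later. They are shown because the probe defines what was measured for a transcript with no curated model. They are printed 5' to 3' as in the array files, with positions on mm9, and capitals mark AATAAA, the canonical polyadenylation signal. The first 4 are the neural-high clones 9630041G16Rik (chr4:56970150-56970209, minus strand), 6330418B08Rik (chr1:176992099-176992158, minus), D230018H15Rik (chr9:16040849-16040908, minus) and 6430519N07Rik (chr6:21186097-21186156, plus). The others are 1110046J04Rik (chr13:34051986-34052045, plus), the 2 probes of 1110006E14Rik (chr12:110834811-110834870 and chr12:110836685-110836744, plus) and 2700086A05Rik (chr6:52160572-52160631, minus).
9630041G16Rik: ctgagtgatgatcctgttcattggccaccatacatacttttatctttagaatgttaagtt
6330418B08Rik: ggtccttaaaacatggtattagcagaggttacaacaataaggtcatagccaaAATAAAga
D230018H15Rik: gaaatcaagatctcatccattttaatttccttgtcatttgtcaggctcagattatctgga
6430519N07Rik: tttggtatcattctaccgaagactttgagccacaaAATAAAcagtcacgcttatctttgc
1110046J04Rik: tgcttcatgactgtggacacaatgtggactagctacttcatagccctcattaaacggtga
1110006E14Rik, first probe: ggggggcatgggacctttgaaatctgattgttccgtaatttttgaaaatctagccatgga
1110006E14Rik, second probe: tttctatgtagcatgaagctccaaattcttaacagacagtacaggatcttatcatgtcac
2700086A05Rik: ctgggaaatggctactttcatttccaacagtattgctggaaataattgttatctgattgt

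These letters were AT-rich as a class. The median GC content was 38.3% over the 1449 probes and 41.7% over 24795 probes of named genes with a curated mRNA accession. AATAAA stood in 279 clone probes (19.3%), in 13.3% of named-gene probes and in 10.1% of all non-control probes. The reverse complement of that motif, TTTATT, stood in 5.04% of clone probes, 4.29% of named-gene probes and 3.74% of all. A 20-base word was shared with a probe mapped elsewhere by 49 clone probes (3.38%) and by 3.30% of named-gene probes, and by none of the clones printed above. A match is only a description of these letters.

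Clone transcripts were detected less often than named genes on each of the 5 arrays. In MEF 649 clone probes (44.8%) were well above background and in NPC 653 (45.1%), against 69.8% and 67.4% of named-gene probes. On the ciNPC arrays 523 (36.1%) were detected at p5, 493 (34.02%) in p13 replicate 1 and 552 (38.1%) in p13 replicate 2, against 63.2% to 66.8% of named-gene probes. In all, 608 clone probes (42.0%) were above background on no array and 396 on all 5, where the shares of named-gene probes were 21.2% and 56.6%.

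Detection also differed between the ciNPC arrays and the MEF and NPC arrays, where cell type and slide cannot be told apart. There were 57 clone probes (3.93%) above background in both MEF and NPC but on no ciNPC array, and 0 above background on all 3 ciNPC arrays but in neither of the others. For named-gene probes these counts were 500 (2.02%) and 13 of 24795. The lowest level called above background was -4.12 in MEF and -4.18 in NPC but -3.37, -3.05 and -2.62 on the ciNPC arrays at p5, p13 replicate 1 and p13 replicate 2. Among the ciNPC arrays p13 replicate 2 had both the highest such level and the most clones detected.

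The tissue whose cDNA gave a clone went with how often it was seen. Of 429 clones from testis libraries, 61.5% were above background on no array, and 12.6% to 24.7% were detected on a given array. Of 444 from neural tissue (brain, spinal cord, eye and the like) 35.4% were seen on no array and 43.5% to 53.8% on a given array. Of 160 clones from embryo libraries, 54.4% to 64.4% were detected on a given array and 22.5% on none. Clones from immune tissue, 134 in all, were detected at 50.7% to 66.4%, and 27.6% were seen on no array.

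**Figure D1:**
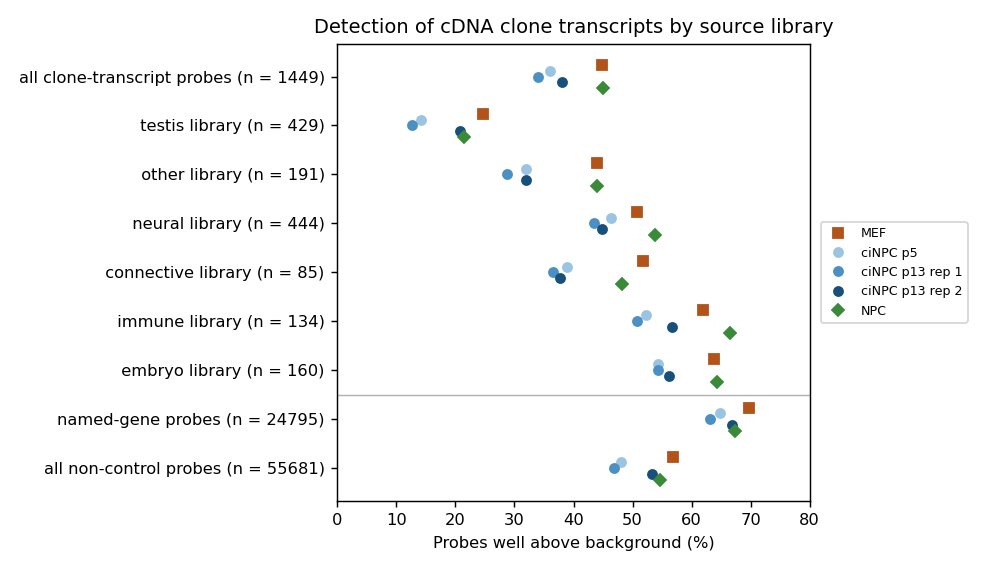
The horizontal axis is the percentage of probes well above background, and each point is 1 array. Testis-library clones lie lowest on every array and embryo-library and immune-library clones among the highest; the ciNPC arrays lie to the left of MEF and NPC in each class of clones. The class of 6 clones with no library given is not drawn.

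The first comparison asks which clone transcripts separate brain NPC from fibroblasts, within 1 slide and without a test, since each cell type had 1 array. After levels under the lowest detected signal of an array were raised to it (the floor), 61 clone probes were at least 4-fold higher in NPC and 40 at least 4-fold higher in MEF, of 754 detected in either. These are 8.09% and 5.31% of the 754, where 6.87% and 7.56% of the 34888 probes detected in either were that far apart. Clones from neural libraries made up 38 of the 61 NPC-high and 15 of the 40 MEF-high probes. These are 8.56% and 3.38% of all 444 neural clones, detected or not. On that base the shares were 4.21% and 2.76% of all 1449 clone probes and 4.30% and 4.74% of all non-control probes. Testis libraries gave 1 and 5 of 429, immune libraries 7 and 1 of 134, and embryo libraries 9 and 9 of 160.

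On the floored scale the widest NPC-high differences belonged to 3 clones from hindbrain and eye libraries. 6330418B08Rik, from adult medulla oblongata, read -4.78 in MEF, under background, and 2.36 in NPC, at least 89.2-fold higher. D230018H15Rik, from embryonic eyeball, read -5.14 in MEF and 2.06 in NPC, at least 72.2-fold higher. 6330509M05Rik, also from medulla and listed today under the sodium-proton exchanger gene Slc9a7, was above background in both, at -3.65 and 1.995, a log2 difference of 5.65. The other NPC-high clones named by rule were 6430519N07Rik (log2 difference 5.62), AK051961 (4.23) and C230037E05Rik (4.08), with 9630041G16Rik at least 28.4-fold and C430049E01Rik at least 16.2-fold higher.

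The MEF-high end included clones from embryo, placenta, ovary and oviduct libraries. 5033418A18Rik, from ovary and uterus of a pregnant female, read 2.23 in MEF and -6.24 in NPC, at least 85.2-fold apart. 1110046J04Rik and 1600027J07Rik, both listed today as lncRNA, were at least 81.8-fold and 62.2-fold higher in MEF. The second probe of 1110006E14Rik was at least 80.6-fold higher in MEF, AK143362 at least 20.7-fold and 2700086A05Rik at least 24.5-fold. All 6 were under background in NPC. 6330522J23Rik was also under background there, at least 18.2-fold lower, while 4930593A02Rik was above background in both (log2 difference -4.30).

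For these 101 probes the ciNPC arrays could be placed between the ends, with 0 for MEF and 1 for NPC on the floored log2 scale. Of the 61 NPC-high clones, 57 lay nearer NPC on each of the 3 ciNPC arrays, 1 nearer MEF on each and 3 were mixed, with a median position of 0.862. The other NPC-high probes on the array gave 91.2% nearer NPC and a median of 0.861. Of the 40 MEF-high clones, 19 lay nearer NPC on each ciNPC array, 5 nearer MEF and 16 were mixed, with a median of 0.604, where other probes gave 47.7% nearer NPC and a median of 0.587. Of these 40 clones 9 were under background on every ciNPC array (364 of 2598 other probes), so that their position came from floors and readings under background, and 8 of the 9 were among the mixed. Among the 31 above background on at least 1 ciNPC array 18 lay nearer NPC, 5 nearer MEF and 8 were mixed, with a median of 0.647 (other probes 49.4% nearer NPC, median 0.587). Nearer MEF on each ciNPC array were 12.5% of all 40 MEF-high clones and 20.2% of the other MEF-high probes. These counts moved with the scaling. Under quantile normalisation 45 of 56 NPC-high and 24 of 33 MEF-high clones lay nearer NPC on each ciNPC array. The difference between clones and other probes was not tested, and both classes rest on the same MEF and NPC arrays. Where the dimmer of MEF and NPC was under background, that end of the scale was also a floor or such a reading. The ciNPC floors (-3.37, -3.05 and -2.62) lay above that of NPC (-4.18). A MEF-high clone at the floor in NPC and on every ciNPC array therefore stayed short of 1. C030009O12Rik, singled out after its values were seen, did so at 0.436. The part of these floors in the MEF-high median was not tested.

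**Figure D2:**
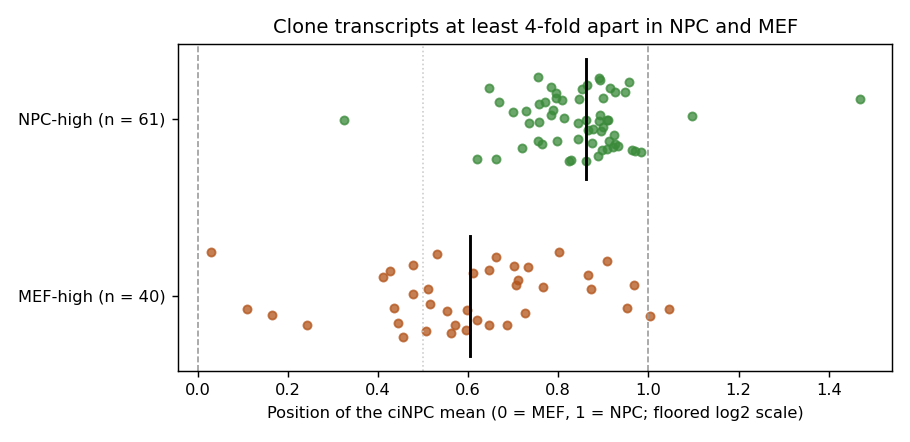
Each point is a clone probe at least 4-fold apart in NPC and MEF, and the horizontal axis is the position of its ciNPC mean between MEF (0) and NPC (1). Black bars are medians, 0.862 for the 61 NPC-high and 0.604 for the 40 MEF-high probes; the MEF-high points spread from 0.029 to 1.046. In 9 of the 40 and 1 of the 61 the ciNPC values are floors or readings under background. A MEF or NPC end under background is also a floor or such a reading, and the ciNPC floors lie above that of NPC.

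The NPC-high clone that lay nearer MEF was D130079A08Rik, from a neural library and today a lncRNA, singled out after its values were seen. It read -0.73 in NPC and was under background on the 4 other arrays, at -6.42 in MEF and -5.59, -5.32 and -4.90 on the ciNPC arrays. The NPC level was at least 4.87-fold above ciNPC. The difference fitted by limma, which uses the readings under background as they are, did not pass (adjusted p 0.101). The nearest named-gene probe, of the neuronal homeobox gene Pou4f1, was 175010 bases away on the same strand.

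ciNPC against MEF asks how far these transcripts had left their fibroblast levels. Of the 1449 clone probes 772 passed the filter on dim signal, which asked for detection on every array of at least 1 group and so favours probes that differ. Of these 105 rose and 69 fell, 22.5% of those tested (13.6% higher, 8.94% lower), beside 24% of all 35613 probes tested (12.8% higher, 11.2% lower). The median log2 difference was -0.01 over the clone probes tested and -0.08 over all. The up and down split depended on the scaling. With the 75th percentile taken over probes detected on all 5 arrays, 118 rose and 49 fell, and the median of all probes moved from -0.08 to 0.06. Under quantile normalisation 77 rose and 73 fell, as in the deposited value table, and the median of all probes was -0.14. By library, of 271 neural clones tested 57 rose and 23 fell, and of 129 testis clones tested 5 rose and 7 fell. Embryo libraries gave 19 and 14 of 120 tested, and immune libraries 12 and 8 of 94. Connective libraries gave 6 and 3 of 48, and other libraries 6 and 13 of 105.

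The 8 clones named as higher were taken by the fitted difference, which for 6 of them rests on a MEF reading under background, so no order among them is read and a bound is given. An adjusted p printed beside an at-least fold, here and below, belongs to limma's fitted difference, which uses readings under background as they are. The bound itself was not tested. 9630041G16Rik, from neonatal cerebellum, read 1.1 at p5, 0.53 and 0.26 in the p13 replicates and 0.71 in NPC, but -6.38, under background, in MEF. The ciNPC level exceeded MEF at least 26.9-fold (adjusted p 5.44e-05). All 3 ciNPC arrays and NPC lay within 1 log2 unit of each other and far above MEF. Its nearest named-gene probe, of Epb41l4b on the same strand 104.4 kb away, read -1.18 in MEF, -1.53 to -0.83 on the ciNPC arrays and -1.96 in NPC, and so did not follow the clone.

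6330418B08Rik read 1.72 at p5 and 2.08 and 1.84 at p13, beside 2.36 in NPC and -4.78 in MEF, and was at least 63.9-fold higher in ciNPC than in MEF (adjusted p 9.94e-06). Rgs7, a regulator of G protein signalling in neurons, was probed 16.2 kb away on the same strand and read -2.46 in MEF and 0.03 to 0.71 on the ciNPC arrays. D230018H15Rik read 1.59, 1.27 and 1.44 on the ciNPC arrays, 2.06 in NPC and -5.14 in MEF (at least 46.9-fold, adjusted p 1.12e-05). Its nearest named-gene probe was that of the atypical cadherin Fat3, 325.1 kb away on the same strand, at -4.36 in MEF and -1.17 to -0.33 in ciNPC. In each pair the clone was brighter in neural cells than in MEF and so was its neighbour.

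6430519N07Rik, from adult olfactory brain, was above background on all 5 arrays: -3.46 in MEF, 1.81, 1.67 and 1.46 in ciNPC and 2.16 in NPC. It rose by 5.11 log2 units (SE 0.21, adjusted p 2.25e-05). Its nearest named-gene probe, of the potassium channel gene Kcnd2, lay 493.4 kb away on the same strand, at -4.28 in MEF and 0.11 to 0.42 in ciNPC. AK081938, another neural clone whose nearest named-gene probe is that of Kcnd2, was singled out after its values were seen. It read -3.62 in MEF, -0.11, 0.20 and 0.34 in ciNPC and 0.35 in NPC, a rise of 3.76 (SE 0.28, adjusted p 0.000191).

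Of the other clones among these 8, 6330509M05Rik rose by 5.03 log2 units (SE 0.38, adjusted p 0.000203), reading 0.89, 1.95 and 1.30 in ciNPC. Chst7, which encodes a sulfotransferase of the chondroitin pathway, was probed 1.54 kb away on the opposite strand and read 0.17 in MEF and 5.04 to 5.41 in ciNPC. AK163669, from medulla, was at least 8.54-fold higher (adjusted p 0.00017), at -1.02, -0.91 and -1.14 in ciNPC and -6.21 in MEF. Amph, the gene of the synaptic vesicle protein amphiphysin, lay 30.8 kb away on the same strand at -6.34 in MEF and 3.27 to 3.45 in ciNPC.

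Both remaining clones of the 8 belong today to protein-coding genes. 4930488B01Rik, now under the symbol Pnmal1, exceeded MEF at least 11.1-fold (adjusted p 9.28e-05), at -0.52, -0.64 and -0.78 against -6.35 in MEF. The array's own Pnmal1 probe, 3.06 kb away on the same strand, read -3.96 in MEF and -2.50 to -2.05 in ciNPC. C430049E01Rik, now Ccdc194, was at least 9.50-fold higher (adjusted p 0.000208), at -0.87, -1.24 and -0.49 against -6.42 in MEF.

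Levels of neural markers moved with these clones: the summed level of the 7 neural progenitor markers was 4.32 in MEF, 8.47 to 8.75 on the ciNPC arrays and 8.96 in NPC (log2 of the sum). The summed level of the 7 fibroblast markers ran the other way, 10.80 in MEF, 7.53 to 8.03 in ciNPC and 1.71 in NPC. Their part in the clone differences was not tested. In bulk RNA, fewer cells of a type and less RNA per cell cannot be told apart.

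Of the 8 clones named as lower than MEF, 3 were under background on each ciNPC array. 1600027J07Rik, from placenta, read 1.78 in MEF and -2.67, -3.27 and -2.69 in ciNPC (log2 difference -4.66, SE 0.52, adjusted p 0.00089). Only 1 of its ciNPC readings was above background. Its nearest named-gene probe was of Cdh11, a cadherin of mesenchymal cells, 710.2 kb away on the same strand and at 3.11 in MEF, 0.24 to 0.94 in ciNPC and -4.81 in NPC. Clone and cadherin stood in the same order, MEF above ciNPC above NPC.

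5033418A18Rik, on chromosome X, read 2.23 in MEF and -2.38, -3.19 and -1.55 in ciNPC (log2 difference -4.61, SE 0.66, adjusted p 0.00233), above background on 2 of the 3 ciNPC arrays. AK143362, from ovary, read 0.19 in MEF and lay under background on all other arrays, at least 9.21-fold lower in ciNPC (adjusted p 0.00698). Bmp4, a secreted growth factor of the BMP family, was probed 5.41 kb away on the opposite strand and read 4.69 in MEF, 1.98 to 2.68 in ciNPC and -4.96 in NPC. Clone and neighbour were both brightest in MEF.

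A730054J21Rik, 4.25 kb from the kinesin-family gene Kif26b on the same strand, was at least 3.75-fold lower in ciNPC (adjusted p 0.0245). Kif26b itself read 4.06 in MEF, -1.43 to -0.94 in ciNPC and -6.28 in NPC. 8030498J20Rik was at least 2.32-fold lower. Its fitted log2 difference of -3.39 (adjusted p 0.0321 in limma) rests on ciNPC readings under background. Both were under background on each ciNPC array, and both calls were lost without p13 replicate 1 (adjusted p 0.121 for A730054J21Rik and 0.128 for 8030498J20Rik), that of 8030498J20Rik also under normexp background and with no filter. A930026B05Rik, from retina, read 0.42 in MEF and -3.12, -3.21 and -2.68 in ciNPC (log2 difference -3.42, SE 0.47, adjusted p 0.00196), with 1 of the 3 ciNPC readings above background. Its neighbour Vamp5 went the same way by less, at 3.52 in MEF, 2.59 to 2.69 in ciNPC and 3.07 in NPC. The log2 difference of Vamp5 in ciNPC against MEF was -0.87 (adjusted p 0.0031 in limma). The last of these 8, 1110046J04Rik and 2700086A05Rik, are described with NPC.

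**Figure D3:**
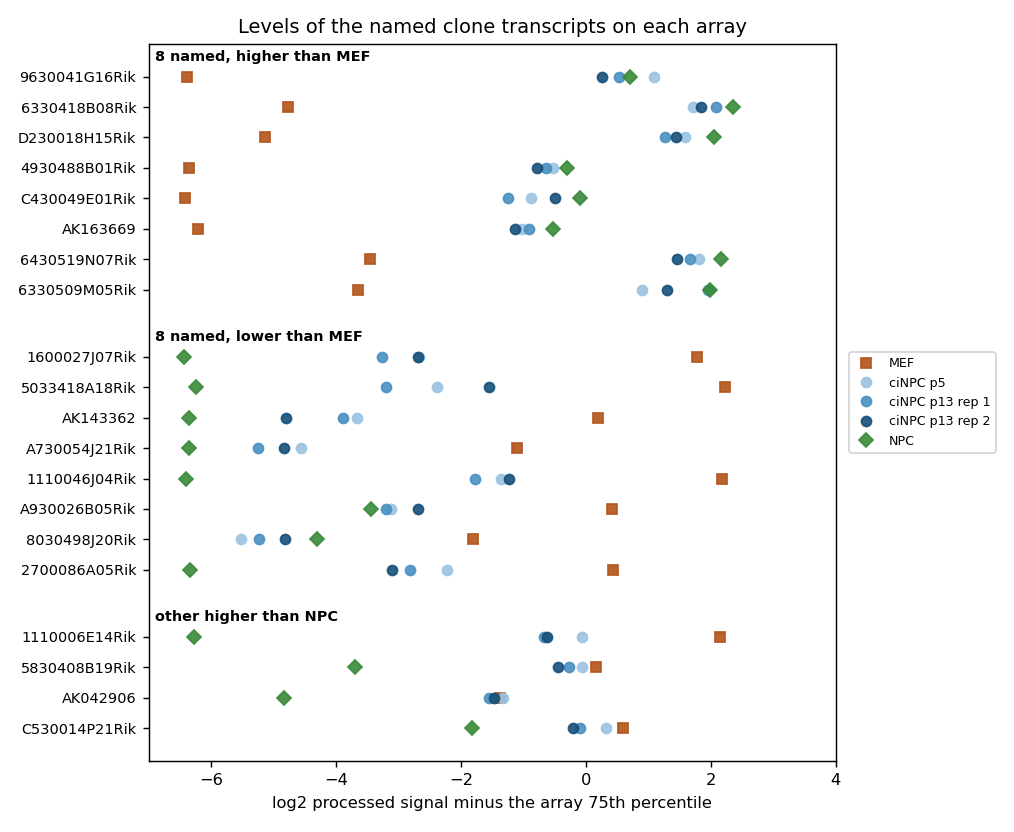
Points are levels on the 5 arrays (log2 processed signal minus the array's 75th percentile) for the clones named against MEF and NPC; of 1110006E14Rik the second probe is drawn. In the 8 clones named as higher than MEF the ciNPC and NPC points lie together to the right of MEF. In 7 of the 8 named as lower the ciNPC points lie between MEF and NPC, and in 8030498J20Rik they lie left of NPC. AK143362, A730054J21Rik and 8030498J20Rik were under background on all ciNPC arrays and in NPC. For these clones the order of ciNPC and NPC is not read.

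ciNPC against NPC asks what still set the induced cells apart from brain progenitors. Of the 772 clone probes tested, 12 were higher in ciNPC and 0 lower, or 1.55%. Over all probes 2.76% passed, 2.71% higher and 0.0505% lower. At an unadjusted p under 0.05 limma gave 60 clone probes and 4414 of all probes. The count of 12 was sensitive to 1 array: without p13 replicate 2 it was 23, with 19 higher and 4 lower, and it fell to 6 (5 higher, 1 lower) under quantile normalisation.

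The largest measured or at-least fold was at the imprinted Dlk1-Meg3 region of chromosome 12, where a string of non-coding RNAs is transcribed from the maternal chromosome. The second probe of 1110006E14Rik read 2.15 in MEF, -0.06, -0.68 and -0.62 in ciNPC and -6.28 in NPC, at least 13.3-fold higher in ciNPC than in NPC (adjusted p 0.000245). The first probe, from another clone, read 1.32, then -1.06, -1.48 and -1.39, then -6.24 (at least 7.31-fold, adjusted p 0.000731). Both fell against MEF, with log2 differences of -2.60 (SE 0.36, adjusted p 0.00192) and -2.63 (SE 0.38, adjusted p 0.00232).

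Meg3, the best known non-coding RNA of that region, was probed 25.1 and 26.9 kb away on the same strand, at 7.63 in MEF, 3.60, 3.0 and 2.95 in ciNPC and -3.22 in NPC. The probe of Rtl1, 6.37 and 8.25 kb away on the opposite strand, was above background on 1 array only, p13 replicate 2. The clone and Meg3 held the same order of cell types, MEF above each ciNPC array and each ciNPC array above NPC.

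1110046J04Rik, on chromosome 13 and from a late embryo, showed the same order. It read 2.17 in MEF, -1.36, -1.78 and -1.23 in ciNPC and -6.40, under background, in NPC. It was at least 6.61-fold higher in ciNPC than in NPC (adjusted p 0.000811) and fell against MEF (log2 difference -3.63, SE 0.39, adjusted p 0.000744). Nqo2, a quinone reductase gene 8.04 kb away on the same strand, did not follow, at -2.27 in MEF, -1.79 to -1.13 in ciNPC and -1.28 in NPC.

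For 3 other clones the ciNPC level lay close to MEF. 5830408B19Rik read 0.16 in MEF, -0.06, -0.27 and -0.44 in ciNPC and -3.70 in NPC, a difference from NPC of 3.45 (SE 0.29, adjusted p 0.00114). Its neighbour Samd5, 4.72 kb away on the same strand, read 0.58 in MEF, -0.59 to 0.00 in ciNPC and -4.27 in NPC. AK042906 read -1.37 in MEF, -1.33, -1.55 and -1.48 in ciNPC and -4.83 in NPC (at least 6.62-fold, adjusted p 0.00544), and came from a cerebellum library. C530014P21Rik, from embryonic spinal cord, differed from NPC by 1.83 (SE 0.28, adjusted p 0.0187). Against MEF none of these 3 passed, with log2 differences of -0.42, -0.08 and -0.59 and adjusted p of 0.323, 0.903 and 0.16. Under quantile normalisation the calls of AK042906 and C530014P21Rik against NPC were lost and that of 5830408B19Rik was kept.

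The remaining calls fell outside the naming rule and are listed after their values were seen. A530047J11Rik, 9.6 kb from the sarcoglycan gene Sgcd, was at least 2.99-fold higher in ciNPC than in NPC, 5033418A18Rik at least 3.49-fold, 2700086A05Rik at least 2.77-fold and 1600027J07Rik at least 2.47-fold, each under background in NPC and on at least 1 ciNPC array. 3930401B19Rik and AK132033 were above background on all arrays and just past 2-fold, at log2 differences of 1.03 and 1.001. Quantile normalisation also ended the calls of 5033418A18Rik, 2700086A05Rik and 1600027J07Rik. On the MEF array the 12 probes read from -1.37 to 5.08. The summed level of the 7 fibroblast markers, 7.53 to 8.03 on the ciNPC arrays, was 1.71 in NPC, where Col1a1, Twist2 and Postn were under background, and its part in these calls was not tested.

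2700086A05Rik is the clone with today's symbol Hoxaas3, an antisense lncRNA of the HoxA cluster, whose homeobox genes set positional identity along the body axis. It read 0.43 in MEF, -2.22, -2.81 and -3.10 in ciNPC, 2 of these above background, and -6.34 in NPC. It fell against MEF (log2 difference -3.14, SE 0.58, adjusted p 0.00641), a call that was lost under quantile normalisation. Its symbol marks it as antisense, yet the files map its probe to the same strand as that of Hoxa6, 2.32 kb away. Hoxa6 read -0.62 in MEF and -3.60, -3.30 and -1.59 in ciNPC and -4.13 in NPC, and was above background on only 2 of the 5 arrays. Its readings at p5 and in p13 replicate 1 lay under the lowest levels called above background there (-3.37 and -3.05).

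Of the 1449 probes, 16 lay within 50 kb of a probe of a listed neural, mesenchymal, Hox or imprinted gene. Of these 16 the Hoxaas3 clone and both 1110006E14Rik probes, 3 in all (18.8%), were at least 4-fold apart between any of MEF, the ciNPC mean and NPC on the floored scale, as were 104 of all 1449 clone probes (7.18%) and 9.45% of all non-control probes. With 16 probes and 2 of the 3 under 1 name, nothing is read from that share. The list leaves out other developmental genes, among them Bmp4 beside AK143362. A730094K22Rik, 10.3 kb from Zic1, was called above background in MEF alone, at -3.22. Its p13 replicates read -3.12 and -3.51, where the lowest levels called above background were -3.05 and -2.62, against -4.12 in MEF. A lower level in p13 than in MEF is therefore not read from the call. Zic1 read 1.69 in MEF and 3.18 to 3.53 in ciNPC.

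Between passages few clones moved. p13 against p5 gave 3 clone probes higher and 1 lower of 772, beside 0.649% of all probes (0.432% higher, 0.216% lower), from a fit with 1 residual degree of freedom. 4833417C18Rik, today a lncRNA and from an early embryo library, was under background in MEF (-4.85), p5 (-4.80) and NPC (-4.33) and read -0.82 and -0.74 in the p13 replicates, at least 6.03-fold higher than p5 (adjusted p 0.00672). AK047684 read -4.14 at p5 and -1.998 and -0.97 at p13 (at least 3.70-fold, adjusted p 0.0353), and AK045785 rose from -2.10 to -0.96 and -0.92 (log2 difference 1.16, SE 0.29, adjusted p 0.0239). 5330431K02Rik fell from 1.97 to 0.57 and 0.65 (log2 difference -1.36, SE 0.14, adjusted p 2.2e-05). All 4 calls were lost under quantile normalisation and without the variance trend.

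The p13 replicates also show how far clone probes vary with no change of condition. For 437 clone probes above background on both p13 arrays the median absolute difference was 0.19 log2 units, against 0.13 for named-gene probes. For the 841 under background on both, replicate 2 read higher by a median of 0.43 (replicate 1 minus replicate 2, -0.43). The median standard error of ciNPC against MEF was 0.50 over the clone probes tested and 0.35 over all probes tested.

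Clone transcripts and the named genes beside them were then compared in NPC against MEF. On mm9, 303 clone probes lay within 10 kb of a named-gene probe, and for 41 pairs both members were at least 2-fold apart. In 34 of these (82.9%) clone and gene went the same way (Pearson's r across pairs 0.66, n = 41, on the same 2 arrays). On the same strand 25 of 27 did, and on the opposite strand 9 of 14. Adjacent named genes within 10 kb of each other went the same way in 268 of 426 pairs (62.9%), in 75.6% on the same strand and 58.0% on opposite strands. For ciNPC against MEF, which shares the MEF array, it was 22 of 25 clone pairs (88%), beside 66.7% of adjacent named-gene pairs. The strand mix differed, with 17 of the 25 clone pairs but 81 of the 264 named-gene pairs on the same strand. By strand it was 15 of 17 clone pairs beside 77.8% on the same strand, and 7 of 8 beside 61.7% on the opposite.

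Farther pairs were counted in the same way. At 10 to 50 kb 27 of 38 pairs went the same way (23 of 28 on the same strand, 4 of 10 on the opposite), and beyond 50 kb 41 of 58 (27 of 34 and 14 of 24). Some neighbours are the clone's own gene: in 16 of the 303 the RefSeq table gives clone and neighbour the same symbol, 4 of them among the 41 pairs. For the others the annotation used here does not say whether clone and gene form 1 transcript.

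Named pairs show both outcomes. The clones near Hoxa6, Samd5, Sgcd and Kif26b were lower in NPC with their neighbours on the same strand (NPC minus MEF of -4.61, -3.87, -3.43 and -3.07 for the clones and -3.51, -4.76, -2.59 and -8.24 for the genes, on the floored scale). On the opposite strand, 6330509M05Rik and Chst7 differed by almost the same amount, 5.65 and 5.63. The 7 discordant pairs, listed after their values were seen, included AK153785, lower in NPC by -1.30 where the neuronal tubulin gene Tubb2b on the opposite strand was higher by 2.94, and A730081D07Rik, higher by 1.85 where Gcnt2 on the opposite strand differed by -5.63. On the same strand they were 4932433N03Rik (1.59) with Prdm10 (-2.39) and 6430531B16Rik (-1.70) with Adam8 (2.09).

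**Figure D4:**
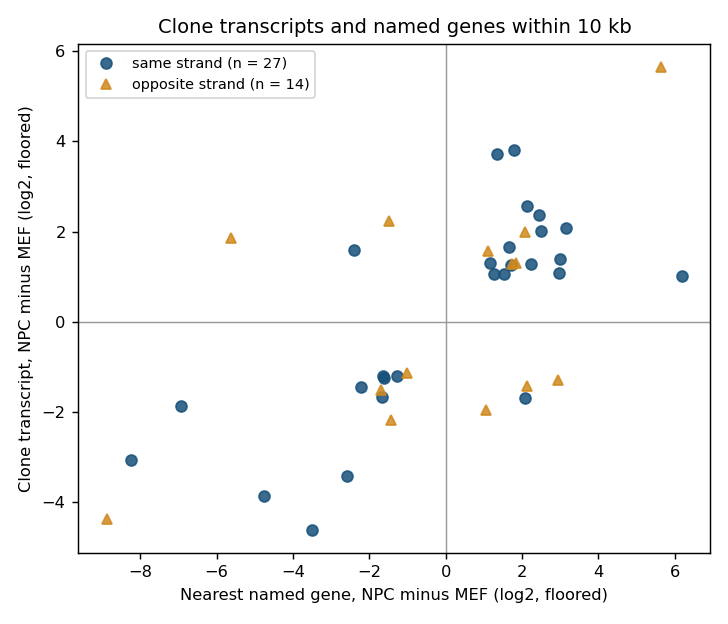
Each point is a clone transcript and its nearest named gene within 10 kb, both at least 2-fold apart, with NPC minus MEF (log2, floored) of the gene on the horizontal and of the clone on the vertical axis. Of 27 same-strand pairs 25 lie in the quadrants of equal sign, and of 14 opposite-strand pairs 9.

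For 37 names the array held more than 1 clone probe, and these did not always give 1 answer. 5031425E22Rik has 2 probes about 49.7 kb apart on chromosome 5. The first, above background on all arrays, fell against MEF (log2 difference -1.103, SE 0.16, adjusted p 0.00272), reading 3.44 in MEF and 2.18, 2.33 and 2.48 in ciNPC. The second was under background in MEF and rose at least 3.55-fold in ciNPC (adjusted p 0.00696), reading -2.78, -2.11 and -1.98. The 2 probes of the same name moved in opposite directions, though the first lost its call under 3 other scalings and without the variance trend, with its direction kept.

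2610209C05Rik has probes on opposite strands of chromosome 6, 32.2 kb apart, and neither passed against MEF (0.99, SE 1.37 and 0.81, SE 0.58). Those of 9530036O11Rik are 453.1 kb apart on chromosome 5. The 1 that lies 23.4 kb from the Sonic hedgehog gene Shh was above background on all 5 arrays (-2.81 to -2.31) while Shh was on none, and the other was under background on all 5. For 4930512B01Rik and A230057D06Rik neither probe was above background on any array. By contrast the 2 probes of 1110006E14Rik differed by 0.02 log2 units in their ciNPC difference from MEF.

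At the 2-fold limit against MEF the values just inside were those of 6720420G18Rik (1.003) and C030009H01Rik (-1.001), and those just outside 2610020P09Rik (-0.98) and AK020212 (0.98), all with an adjusted p under 0.05. Without the p5 array the first pair fell outside, at 0.89 and -0.85.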

How the data were processed

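RNA of 5 mouse samples was measured on single-colour (Cy3) 60-mer arrays, 1 array a sample. Per the file headers the probes are annotated on mm9, and per the submitters' processing notes the authors used Agilent Feature Extraction 10.7.1.1. In the deposited array files a spot's processed intensity has its background subtracted but carries no scaling between arrays. The series also has a deposited table of log2 values, used only as an alternative; its 5 columns share 1 distribution, and the normalisation step is not given in the sources used here.

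The level of a probe is log2 of its intensity less the array's 75th percentile, after flagged outlier spots were removed. Probes above background throughout 1 or more groups entered limma 3.58.1 (R 4.3.3; lmFit, eBayes with trend). ciNPC against MEF or NPC used 3 groups (2 residual degrees of freedom), and p13 against p5 used 4 groups (1). A probe was called at a Benjamini-Hochberg adjusted p under 0.05, over all 35613 probes tested, and at least 2-fold. NPC against MEF, with 1 array each, has no test. The lone MEF and NPC arrays are assumed to vary like the ciNPC arrays, and separate cultures for the p13 arrays are not stated in the labels, so p-values reflect only the spread among these arrays, which may be technical. The number of arrays limits the precision.

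The 1449 probes were taken by their accession and name. Named, by fitted difference, are up to 8 called probes at each end against MEF and NPC that were above background on each array of the brighter group and 2-fold apart on each ciNPC array. For p13 against p5 the rule takes 5 at each end, for NPC against MEF 8 at each end, and it adds clones within 50 kb of listed regulators, the clone names with the widest-spaced probes, and clones beside the 2-fold limit. The members, lists and rules were chosen with earlier results of these data known. Some listed genes, 1 neural progenitor marker among them, are not reported here. The fit was tested on simulated data. Alternatives covered scaling, background correction, filters, the variance trend, grouping and leaving out arrays.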

Additional observations from a re-analysis of the deposited data

How the results depend on the processing

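No paired analysis was possible because only the p13 arrays carry replicate numbers, so the groups compared share fewer than 2. Of 1062 values of named clones under other settings, 0 changed direction with a call, 52 lost a call and 18 gained one; the cause was not tested. The members called against MEF stayed within 1.5 times of 174 under each alternative (133 to 186), with 145 to 235 when 1 ciNPC array was left out. Those against NPC, 12, became 6 under quantile normalisation and 6 in the deposited value table, 5 among probes detected on all 5 arrays and 5 without the variance trend, and 14 to 23 with 1 ciNPC array left out. Those for p13 against p5, 4, became 0 under quantile normalisation, the deposited table and no variance trend, 9 under normexp background and 2 among probes detected on all 5 arrays; leaving out a p13 array leaves no residual degrees of freedom and no test. The 101 clones 4-fold apart in NPC and MEF became 53 under normexp, 173 with no floor, 301 at 2-fold and 47 at 8-fold. Clones NPC-high and nearer NPC, 57 of 61, were 27 of 29 at 8-fold and 45 of 56 under quantile normalisation. Clones MEF-high and nearer NPC, 19 of 40, were 10 of 18 at 8-fold and 24 of 33 under quantile normalisation. Without 1 ciNPC array these counts were 57 to 59 of 61 and 19 to 26 of 40, an alternative chosen after seeing the data. So were counting members above background on at least 1 ciNPC array (57 of 60 and 18 of 31) or on all 3 (55 of 57 and 13 of 21) and leaving out clones with a shared 20-base word (161, 10 and 97 for MEF, NPC and NPC against MEF). The looser call of a signal significantly above background detected 72.0% of clones in MEF, 58.7% at p5, 58.6% and 72.9% at p13 and 68.1% in NPC. The same-direction share in NPC against MEF was 66.7% within 1 kb (2 of 3 pairs), 64.3% on the opposite strand alone and 100% at 4-fold (10 pairs), and in ciNPC against MEF 100% within 1 kb (2 pairs) and 100% at 4-fold (6 pairs). Dim signal limits these transcripts: 608 of 1449 gave no level above background.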
